A study of Mus musculus with 12 samples.

Results

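The genes described here are 10 genes of the blood-retina barrier and its endothelial cells, namely Cldn5, Ocln, Tjp1, Cdh5, Pecam1, Mfsd2a, Slc2a1, Plvap, Vwf and Abcb1a. They were chosen by gene symbol, and all 10 were among the 25124 genes listed for bulk mouse retina. The animals were wildtype (WT) C57BL/6J mice in which the pressure inside the eye (intraocular pressure, IOP) was raised to 30 mmHg for 1 hour in a single eye. The untreated fellow eye of such animals was the control, so every control library also came from a mouse that had been anesthetized and treated on the other side. In the single-IOP series, retinas were collected on day 2 from mice of 3 months (3mo control, 3mo IOP) and 18 months (18mo control, 18mo IOP). In the repeated-IOP series, mice that were 3 months old at the outset received 4 elevations at 2-week intervals, and retinas were collected on day 2 after the last of them (4xIOP and 4xIOP control). Each of the 6 groups held 2 libraries, each made from the retina of 1 eye. Equal replicate numbers are not stated to mean the same animal, and p-values measure the spread among these libraries. Each age had libraries of its own, so age and any difference in handling between the ages cannot be told apart. Whole retina was homogenized, so a lower level of an endothelial gene through fewer endothelial cells and through less RNA per cell cannot be told apart.

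The inner blood-retina barrier is formed by the endothelial cells of the retinal vessels, which are sealed to each other by tight junctions, move little material across by vesicles, and carry selective transporters for the nutrients that neurons need. Pericytes, glial end feet and norrin signaling through the receptor Fzd4 help to build and keep it. The capillaries of the choroid, behind the retina, are by contrast fenestrated, and there the retinal pigment epithelium forms the outer barrier.

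Depth lay between 39766231 and 59455061 tags per library, of which 44.2% to 71.5% were in exons. The unit was FPKM, fragments scaled to transcript length and to the tags of the library, so that levels are per length. Endothelial RNA was present in all 12 libraries, with the defining markers Cdh5, Pecam1, Tie1, Erg, Egfl7 and Kdr above 0 in each, although Cdh5 rested on only 10 to 70 reads in the 3mo libraries and Erg was as low as 0.015 FPKM in 1 of them. The libraries differed in how short and long transcripts were represented, which limits comparisons of level between genes of different length. The median level of protein-coding transcripts under 1000 bases was 3.03 and 9.12 times that of transcripts of at least 4000 bases in the 3mo controls, 7.04 and 5.47 times in 3mo IOP, and 1.52 to 1.89 times in the 18mo libraries. The ages also differed in markers of tissue next to the retina. The 10 markers of the retinal pigment epithelium summed to 204 to 446 FPKM in the 3mo libraries and to 122 to 170 in the 18mo libraries, and the 6 melanocyte markers summed to 17.0 to 406 against 0.354 to 4.91.

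The promoters of 6 of the 10 genes were at hand (RefSeq, GRCm38.p6), and their start sites coincided with the 5′ ends of the counted transcripts. The 250 bases upstream of the start are printed for Cldn5, Abcb1a, Mfsd2a and Slc2a1, to be read beside their values. All 10 genes, Ocln and Tjp1 included, were higher in the controls at 18 than at 3 months, so the printed genes are not a group apart. The printed windows lie at chr16:18776597-18776846 (plus strand), chr5:8566841-8567090 (plus), chr4:122961189-122961438 (minus) and chr4:119108495-119108744 (plus), in that order. Capitals mark matches to 10 short motifs searched on both strands, and positions are counted back from the start site.

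Cldn5: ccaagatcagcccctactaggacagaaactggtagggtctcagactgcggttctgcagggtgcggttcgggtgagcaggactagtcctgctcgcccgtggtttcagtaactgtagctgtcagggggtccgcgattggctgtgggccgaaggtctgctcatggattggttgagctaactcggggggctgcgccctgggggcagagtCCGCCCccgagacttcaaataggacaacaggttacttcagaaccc
Abcb1a: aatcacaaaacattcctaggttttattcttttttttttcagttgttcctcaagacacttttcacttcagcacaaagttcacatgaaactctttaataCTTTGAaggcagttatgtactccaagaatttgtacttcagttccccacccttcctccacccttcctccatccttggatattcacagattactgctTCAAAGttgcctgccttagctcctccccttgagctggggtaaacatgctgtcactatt
Mfsd2a: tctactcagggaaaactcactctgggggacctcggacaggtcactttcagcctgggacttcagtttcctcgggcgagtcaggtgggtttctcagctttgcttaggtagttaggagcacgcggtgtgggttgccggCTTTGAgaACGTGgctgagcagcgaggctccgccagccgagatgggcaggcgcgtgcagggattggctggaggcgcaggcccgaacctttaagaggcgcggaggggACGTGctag
Slc2a1: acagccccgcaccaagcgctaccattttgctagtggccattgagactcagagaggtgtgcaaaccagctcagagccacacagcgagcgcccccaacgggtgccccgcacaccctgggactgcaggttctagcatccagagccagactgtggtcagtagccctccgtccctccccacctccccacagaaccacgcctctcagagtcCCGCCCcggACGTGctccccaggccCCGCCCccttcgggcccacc

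The GC box GGGCGG lay in the upstream 250 bases of 4 of the 6 genes (Cldn5, Ocln, Tjp1 and Slc2a1), against 32.7% of all 32851 promoters in the table. In Cldn5 it was the only motif found, on the minus strand at -45. The hypoxia element core ACGTG was in 2 of the 6, Mfsd2a at -107 and -9 and Slc2a1 at -36, against 16.6% of all promoters. The TCF/LEF letters CTTTGA were in Abcb1a at -153 and -58 and in Mfsd2a at -115, against 13.8%. The ETS cores CAGGAAG and CCGGAAG, the GATA site AGATAAG, the SOX letters ACAAT and ATTGTT, the STAT palindrome TTCNNNGAA and the AP-1 site TGANTCA were not in these windows. Their shares among all promoters were 10.8%, 6.9%, 2.7%, 27.7%, 9.4%, 7.0% and 6.7% in the same order. These matches describe the letters only.

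The barrier genes were higher in 18-month-old than in 3-month-old control retinas. All 10 were higher in both 18mo controls than in both 3mo controls, an order seen in 45.7% of the 13731 genes tested. A gene was called when its Benjamini-Hochberg adjusted p in limma did not exceed 0.05 and its log2 fold change reached 1 in size. By this measure 8 of the 10 genes rose and 0 fell, where 11.6% of all tested genes rose. The median log2 fold change of the 10 genes was 1.65 against 0.16 for all tested genes, 1.49 above it. That median of all genes was 0.01 with median-of-ratios size factors. Fold changes are on the scale of log2(FPKM + 0.5), which understates the change of low genes, so ratios of mean FPKM are given beside them. Cdh5, Mfsd2a, Vwf and Abcb1a were below 0.5 FPKM in both 3mo controls and were tested only because of their level in the 18mo libraries.

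**Figure D1:**
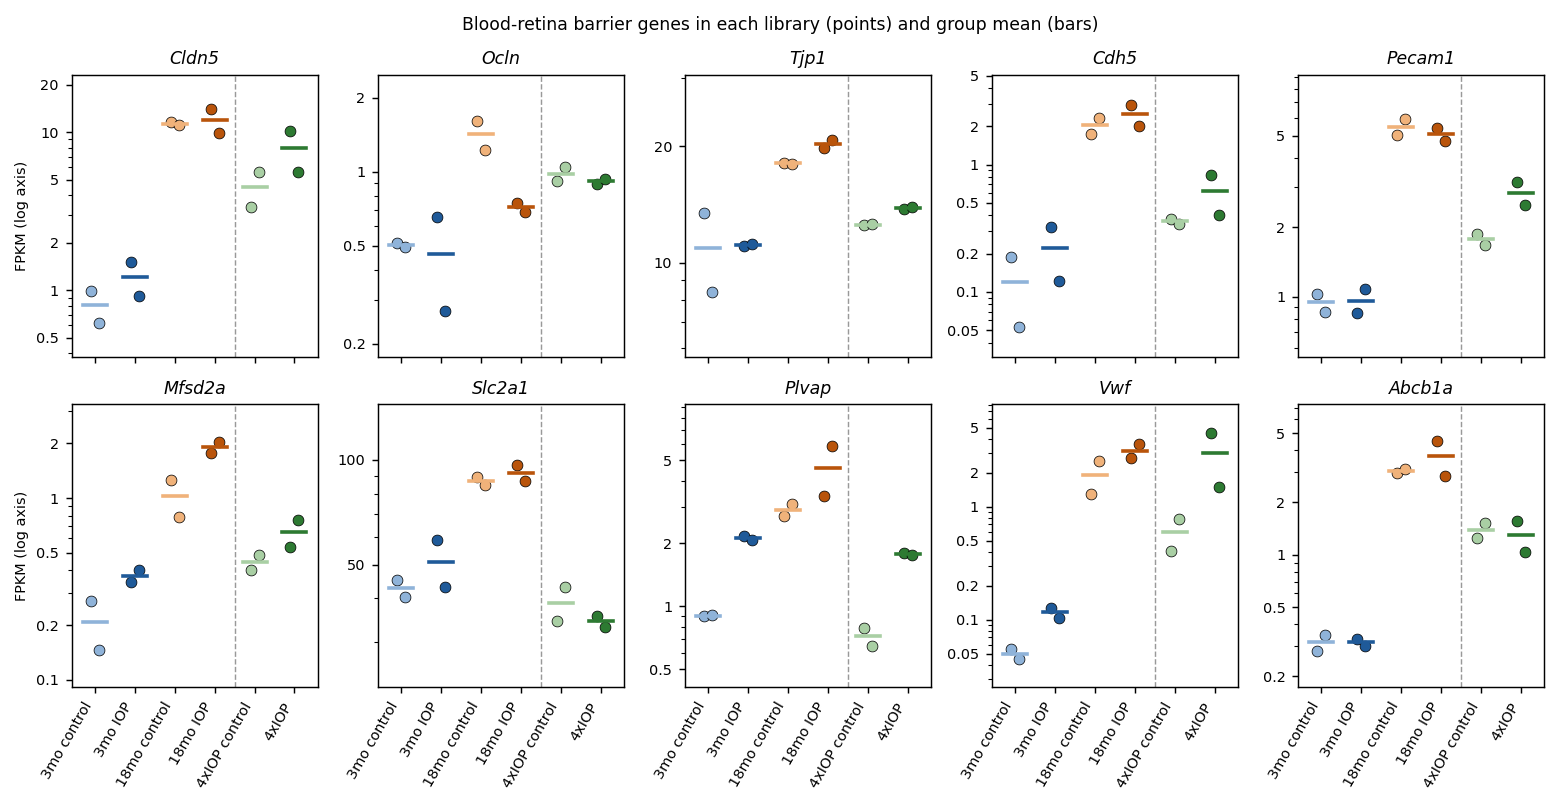
FPKM (log axis, own scale per gene) of the 10 barrier genes in each library. Points are libraries, bars are means of 2 libraries, and the dashed line separates the single-IOP from the repeated-IOP table, which were normalized separately. In all 10 panels the 18mo controls lie above the 3mo controls, with Cldn5 at 11.58 and 11.04 against 0.988 and 0.622 FPKM.

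Among the tight junction genes, Cldn5 changed most. It encodes claudin-5, the main claudin of barrier endothelium, and is a transcript of 1413 bases at chr16:18776847-18778262 (mm10, plus strand). Its level was 0.988 and 0.622 FPKM in the 3mo controls and 11.58 and 11.04 FPKM in the 18mo controls. Read counts recovered from the FPKM were 58 and 42 at 3 months and 717 and 730 at 18 months, and the groups were far apart. The ratio of the means was 14.0, and the log2 fold change of 3.19 ± 0.26 (SE) had an adjusted p of 0.00265 in limma, higher than 99.9% of the tested genes. Ocln (chr13:100497367-100552498, minus strand), which encodes the tight junction protein occludin, was at 0.515 and 0.494 FPKM in the 3mo controls and at 1.61 and 1.23 in the 18mo controls. The ages did not overlap and the adjusted p was 0.0214, but the log2 fold change of 0.93 ± 0.26 stayed below 1. It was called with a pseudocount of 0.1 (1.32) and in voom (1.29), whereas the adjusted p was 0.0522 with quantile normalization and between 0.0726 and 0.127 without 3mo control replicate 2 or either 18mo control. Tjp1 (chr7:65296165-65371244, minus strand), which encodes the scaffold protein ZO-1 found at junctions of many cell types, was at 13.4 and 8.41 FPKM against 18.1 and 18.0. The young replicates differed widely, and the log2 fold change was 0.74 ± 0.22 with an adjusted p of 0.0262. It ranged from 0.42 to 1.06 with 1 library left out and was called without 3mo control replicate 1 (adjusted p = 0.00076). It was 0.30 with an adjusted p of 0.0857 once the trend with transcript length had been removed from each library.

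Both adhesion genes rose. Cdh5 (chr8:104101625-104144502, plus strand), which encodes VE-cadherin of the endothelial adherens junction, was at 0.188 and 0.053 FPKM in the 3mo controls and at 1.74 and 2.34 in the 18mo controls. Only 31 and 10 reads gave the young values, so the ratio of the means, 16.9, is imprecise. Cdh5 overlaps Gm29682, and Abcb1a overlaps Rundc3b, on the opposite strand, but reads were counted by strand. The log2 fold change was 2.03 ± 0.27 with an adjusted p of 0.00484. Pecam1 (chr11:106654213-106715281, minus strand), which encodes the endothelial adhesion molecule CD31, was better covered, at 1.03 and 0.862 FPKM against 5.04 and 5.94. Its replicates lay close together at both ages, the ratio was 5.80, and the log2 fold change was 2.05 ± 0.19 with an adjusted p of 0.00265.

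The 3 transporter genes were at very different levels and all rose. Slc2a1 (chr4:119108745-119137329, plus strand), which encodes the glucose transporter GLUT1 and is also made by other retinal cells, was the highest of the 10 genes in every group. It stood at 45.2 and 40.4 FPKM in the 3mo controls and at 89.2 and 84.8 in the 18mo controls. The young and old pairs were each tight, and the log2 fold change of 1.02 ± 0.20 (adjusted p = 0.00828) passed the threshold of 1 narrowly. It fell below 1 in 3 of the rescaled fits, with 0.84 under median-of-ratios size factors, 0.85 in voom on recovered reads and 0.88 without the length trend. Mfsd2a (chr4:122946851-122961188, minus strand) encodes the lysophospholipid transporter that holds down vesicular transport in barrier endothelium. It was at 0.271 and 0.147 FPKM in the 3mo controls and at 1.26 and 0.791 in the 18mo controls, on 24 and 15 against 118 and 79 reads. The pairs were apart but loose, and the log2 fold change was 1.09 ± 0.24 with an adjusted p of 0.0105, or 0.95 under quantile normalization and 0.74 with a pseudocount of 1, where the call was lost. Abcb1a (chr5:8567091-8748575, plus strand), which encodes the efflux pump P-glycoprotein, was at 0.281 and 0.346 FPKM against 2.97 and 3.13. The ratio was 9.73 and the log2 fold change 2.13 ± 0.24, with an adjusted p of 0.00365. Abcb1a has a close paralog, Abcb1b, and only uniquely mapped reads were counted, so reads shared by both are missing from its level.

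The remaining genes, Plvap and Vwf, rose too. Plvap (chr8:71497753-71511769, minus strand) encodes the protein of the diaphragms that span fenestrae and caveolae, and is low in mature barrier vessels. It was at 0.899 and 0.907 FPKM in the 3mo controls and at 2.70 and 3.09 in the 18mo controls. The ages were clearly apart, and the log2 fold change was 1.27 ± 0.25 with an adjusted p of 0.00804. Vwf (chr6:125552948-125686679, plus strand), which encodes von Willebrand factor, a clotting protein stored by endothelial cells and platelets, was at 0.055 and 0.045 FPKM at 3 months, on 20 and 19 reads. At 18 months it was at 1.30 and 2.51 FPKM, so the aged replicates differed almost as much as the lower of them exceeded the young ones. The ratio of 38.2 was the highest of the 10, and the log2 fold change was 2.08 ± 0.28 with an adjusted p of 0.00484.

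The calls of Cldn5, Cdh5, Pecam1, Vwf and Abcb1a held in every alternative fit that tested them. Slc2a1 and Mfsd2a fell below the fold threshold without 3mo control replicate 2 (0.94 and 0.97), the library with the ratio of 9.12 between short and long transcripts. Their calls were also lost without 18mo control replicate 1 (0.98 and 0.87), and Slc2a1 (1.05, adjusted p = 0.0573) and Plvap (1.19, adjusted p = 0.0588) lost theirs without 18mo control replicate 2. Removing the length trend left 7 of 10 called, with Cldn5 at 3.63, beside 2214 of all 13731 tested genes called in either direction.

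**Figure D2:**
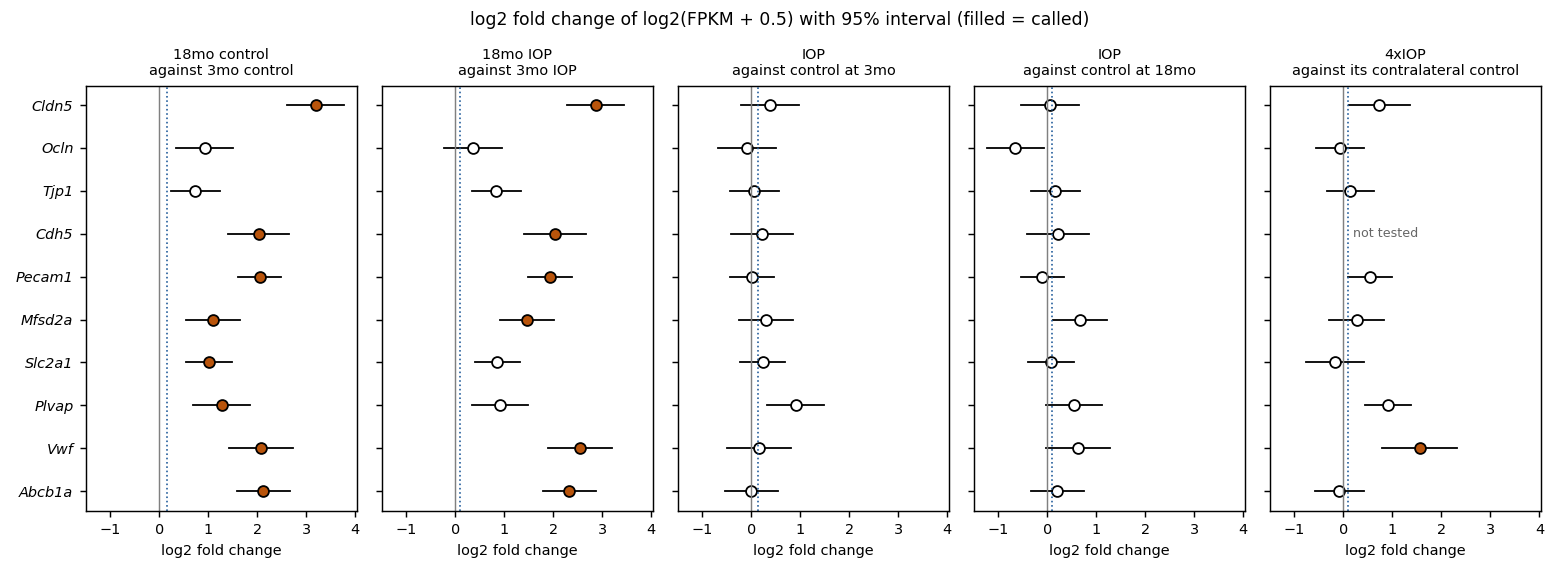
log2 fold change on the log2(FPKM + 0.5) scale (x axis) of each barrier gene (y axis) in 5 comparisons, with 95% intervals from limma. Filled points were called, and the dotted line is the median of all tested genes. The 8 filled points of the first panel lie between 1.02 (Slc2a1) and 3.19 (Cldn5), and no point is filled in either comparison of a single IOP with its control.

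Other genes of the vessel wall were also called higher at 18 months. Among those named here, Eng, Erg, Ptprb, Mmrn2, Acvrl1, Tek, Tie1, Lrp5, Foxq1, Lsr and Marveld2, like the pericyte genes Kcnj8 and Abcc9 and the leukocyte genes Cx3cr1, Itgam and Laptm5, were below 0.5 FPKM in both 3mo controls. They passed the filter through other groups, mainly those where they were high, so the counts over tested genes are descriptions. Of 20 further pan-endothelial genes 16 were tested, of which 10 rose and 0 fell, with a median log2 fold change of 1.19. The highest was Eng (2.39 ± 0.21, adjusted p = 0.00265), a co-receptor for TGF-beta in endothelium, and the lowest was Itm2a (-0.19 ± 0.44). The other 9 that rose were Acvrl1, Cd34, Egfl7, Erg, Ly6c1, Mmrn2, Pltp, Ptprb and S1pr1. Of 18 VEGF, angiopoietin and Notch genes, 12 were tested and 6 rose: the receptors Flt1 (2.61 ± 0.20, adjusted p = 0.00265), Kdr, Flt4, Tek, Tie1 and Notch1. The receptor Nrp1 (0.15) and the ligands Vegfa, Vegfb, Pgf, Angpt2 and Jag1 were not called, and the lowest value was that of Angpt2 (-0.12). Of 13 genes of the norrin and WNT pathway, 9 were tested and 4 rose: the co-receptor Lrp5 (1.63 ± 0.23, adjusted p = 0.00484), the receptor Fzd4, and Apcdd1 and Foxq1. Tspan12, which amplifies norrin signals, was lowest with -0.81 ± 0.26 and did not pass the fold threshold. Quantile normalization called 2 genes of this list higher and 1 lower, and voom 4 higher and 1 lower.

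Of 15 other junction genes, 14 were tested, 5 rose, among them Lsr, F11r, Esam and Marveld2, and 1 fell. Lsr, which encodes a protein of tricellular junctions, was at 0.294 and 0.235 FPKM in the 3mo controls and at 3.02 and 2.60 in the 18mo controls (log2 fold change 2.11 ± 0.27, adjusted p = 0.00476). Cldn1, a claudin mainly of epithelia, went the other way, from 1.56 and 1.14 to 0.071 and 0.079 FPKM (-1.67 ± 0.27, adjusted p = 0.00564). Of 15 other barrier transporters and caveola genes, 14 were tested and 3 rose: Cavin1 (1.76 ± 0.30), a coat protein of caveolae, the amino acid transporter Slc7a5 and the taurine transporter Slc6a6. The transferrin receptor Tfrc was lowest (-0.89 ± 0.21), below the fold threshold, but 1 gene of this list was called lower with median-of-ratios, with the length trend removed and in voom. In limma fits with median-of-ratios size factors, quantile normalization, no length trend or voom, the medians of these 5 lists stayed above 0, between 0.38 and 1.43. The lowest was that of the junction list with the length trend removed, 0.38.

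Markers of other cells changed between the ages as well. Of the pericyte and smooth muscle markers, 4 of 8 tested rose (Rgs5, Pdgfrb, Abcc9 and Kcnj8), with Rgs5 highest (2.17 ± 0.23) and Vtn lowest (-0.47 ± 0.25). Of the 10 leukocyte and microglia markers, 6 rose (C1qa, Cd68, Csf1r, Cx3cr1, Itgam and Laptm5), from Laptm5 at 2.94 to Aif1 at 0.06, and the list summed to 18.6 and 36.6 FPKM in the 3mo controls and to 60.2 and 69.5 in the 18mo controls. Of 8 Muller glia markers 4 rose (Kcnj10, Dkk3, Glul and Aqp4). Of 9 tested markers of the retinal pigment epithelium 8 fell, from Ttr (-5.22) to Ermn (-1.95), with only Rlbp1, a gene of Muller glia too, at 0.10, and of 5 tested melanocyte markers 4 fell (Dct, Mlana, Pmel and Tyr). Red blood cell markers had a median of 1.81, with Alas2 called, but 0 were called with median-of-ratios, quantile normalization or voom, or without 3mo control replicate 2, where the median was 3.56. The sum of these markers lay between 19.6 and 262 FPKM in the 3mo controls and between 166 and 426 in the 18mo controls. Of 8 rod markers Sag alone fell (-1.40), a call lost without 3mo control replicate 2 and with quantile normalization, which moved the rod median from -0.27 to 0.39. Of 4 lens and 2 platelet markers tested, limma and voom called 0, with 1 lens marker at an unadjusted p under 0.05, and 1 lens marker was called higher with the length trend removed. The part of these other cells, and of the difference in transcript length, in the rise of the barrier genes was not tested.

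**Figure D3:**
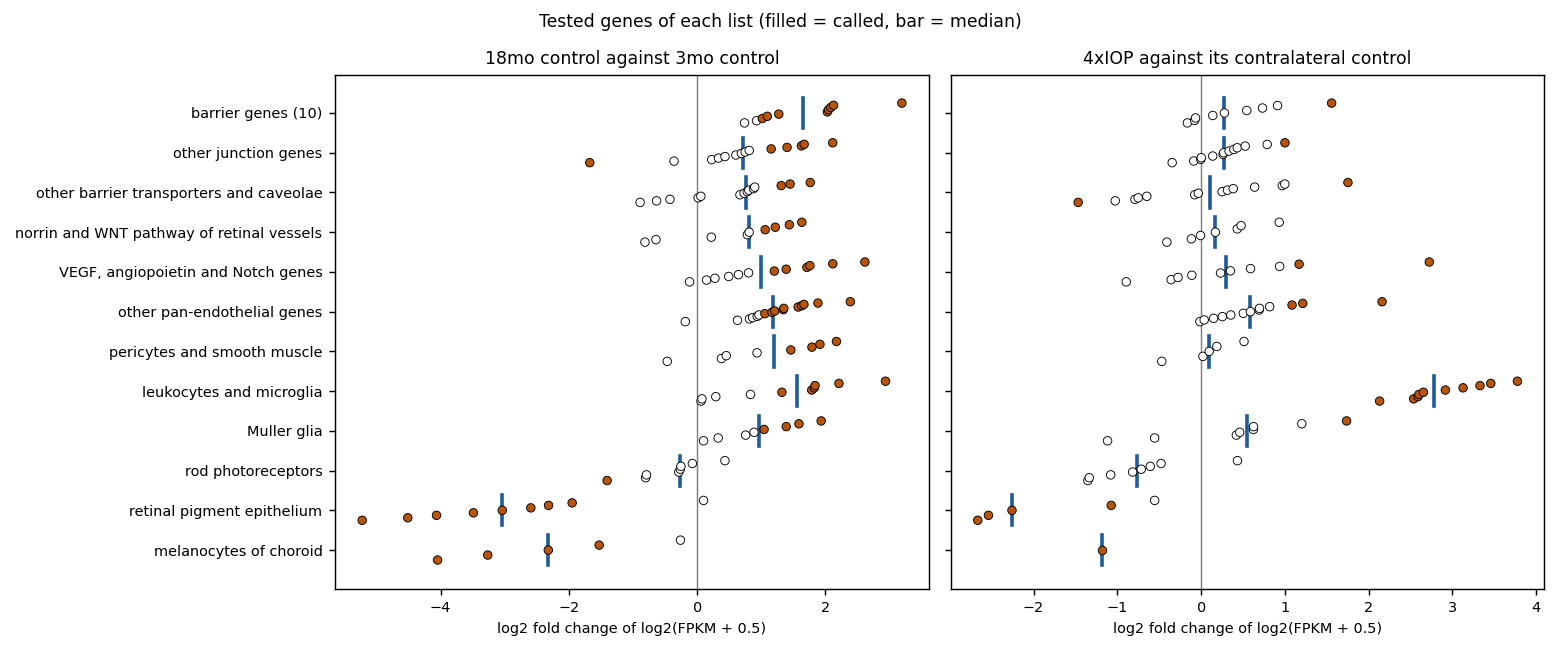
log2 fold change (x axis) of each tested gene of 12 lists (y axis) for 18mo control against 3mo control (left) and 4xIOP against its control (right). Filled points were called and bars are list medians. On the left the barrier genes have a median of 1.65 and the retinal pigment epithelium markers one of -3.04, and on the right the 10 leukocyte and microglia markers are all filled, with a median of 2.79.

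**Figure D4:**
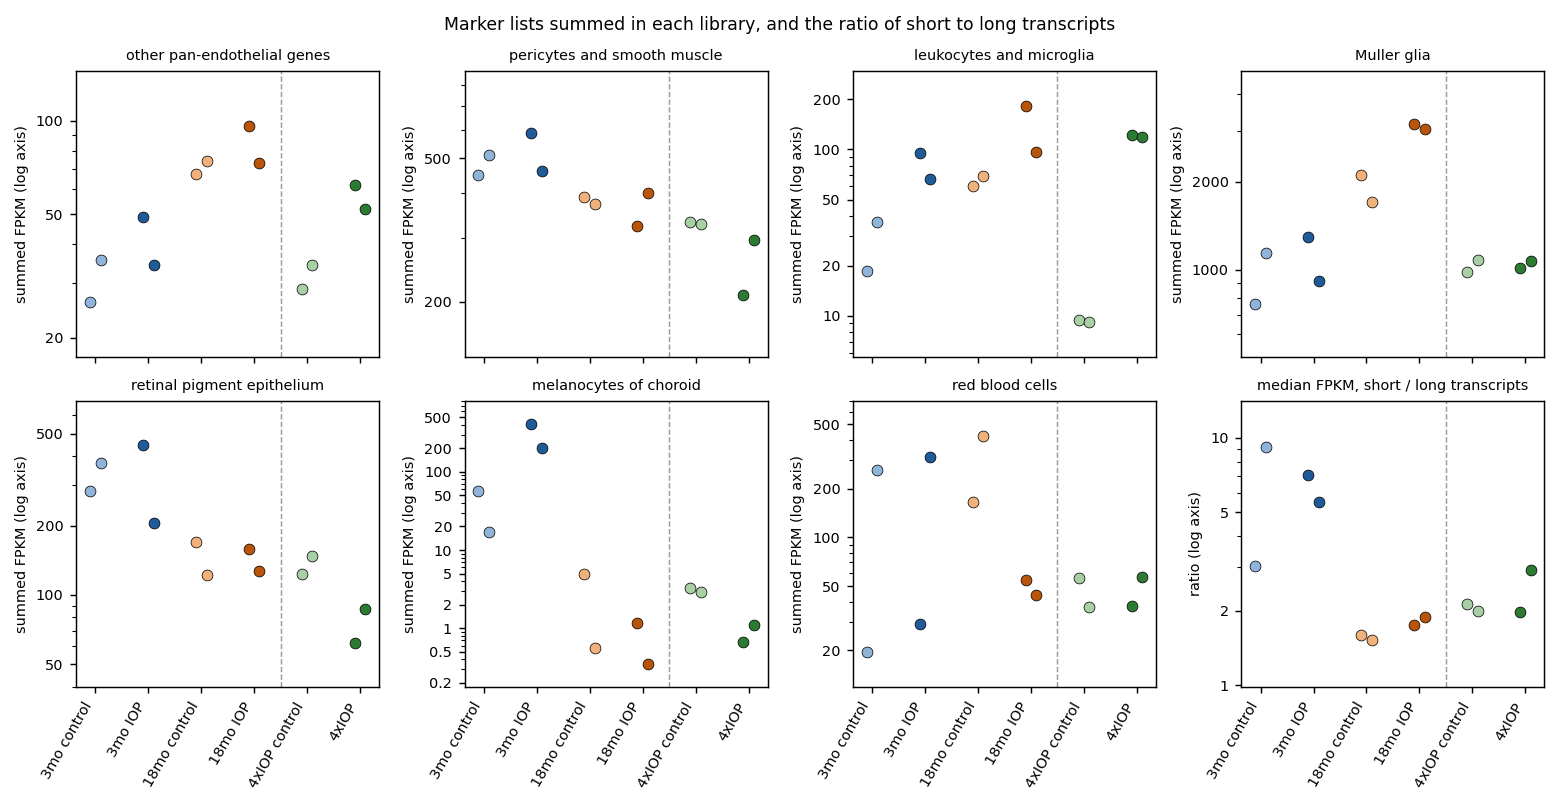
Summed FPKM (log axis) of 7 marker lists in each library, and in the last panel how many times the median level of protein-coding transcripts under 1000 bases exceeded that of transcripts of at least 4000 bases. Points are libraries, and the dashed line separates the tables. The pan-endothelial list sums to 26.1 and 35.6 in the 3mo controls and to 67.4 and 73.9 in the 18mo controls, while melanocyte markers reach 406 in a 3mo IOP library.

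The barrier genes were also higher at 18 months in the treated eyes. All 10 barrier genes were higher in both 18mo IOP than in both 3mo IOP libraries (43.2% of tested genes), and 6 of 10 rose, where 10.2% of all tested genes rose. The 6 were Cldn5 (log2 fold change 2.86), Vwf (2.55), Abcb1a (2.33), Cdh5 (2.04), Pecam1 (1.94) and Mfsd2a (1.46), with adjusted p-values between 0.00166 and 0.00591 in limma. Of these, Cdh5, Mfsd2a, Vwf and Abcb1a were below 0.5 FPKM in both 3mo IOP libraries and were tested only because of their level at 18 months. With a mean of 2 FPKM required, 2 of 5 tested genes were called, beside 2496 of all 10964 tested genes in either direction. These were Cldn5 and Pecam1, both below 2 FPKM in both 3mo IOP libraries. They passed this filter only because of their level at 18 months, so this count is a description too. Slc2a1 (0.86), Tjp1 (0.84) and Plvap (0.92) had adjusted p-values under 0.05 but stayed below the fold threshold. Plvap was called without 18mo IOP replicate 1 (1.28) and with a pseudocount of 0.1 (1.03), and ranged down to 0.56 with another library left out, and Slc2a1 was called with quantile normalization (1.34). Ocln had a smaller difference, at 0.36 with an adjusted p of 0.271. In the other lists, 5 of 14 junction genes rose and Cldn1 fell (-1.89), and 4 of 14 transporter and caveola genes rose (Cavin1, Lrp8, Slc7a5 and Slco1a4), against 1 higher and 1 lower with the length trend removed. Of the norrin and WNT genes Apcdd1, Foxq1 and Lrp5 rose (3 of 9), and of the VEGF, angiopoietin and Notch genes Flt1 (2.94), Kdr, Notch1, Pgf, Tek and Tie1 rose (6 of 12). Of the pan-endothelial genes 9 of 16 rose, from Ly6c1 at 2.16 down, with Itm2a lowest of the tested (-0.51). Among the called genes, Tie1 (0.205 and 0.081 FPKM) and Erg (0.186 and 0.015) were below 0.5 FPKM in both 3mo IOP libraries. They were tested only because of their level at 18 months, so the counts over these lists are descriptions. The pericyte markers Abcc9, Kcnj8, Pdgfrb and Rgs5 rose, whereas the smooth muscle genes Acta2, Myh11 and Tagln fell (Tagln at -2.80). The ratio between short and long transcripts and the markers of the pigment epithelium separated the ages in these libraries too. Of other markers, 6 of 10 for leukocytes and microglia and 6 of 8 for Muller glia rose (medians 1.26 and 1.55), and 4 of 5 for melanocytes fell (median -6.18). Their part in the barrier gene values was not tested. The comparisons of IOP with control share these libraries.

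A single elevation of IOP did not bring any of the barrier genes past the threshold at either age. At 3 months 0 of 10 were called in limma and 0 in voom on recovered reads, beside 0.568% of all tested genes that rose in limma. An unadjusted p under 0.05 in limma was reached by 1 of 10, beside 1169 of all 13731 tested genes. At 18 months 0 of 10 were called in limma and 0 in voom, beside 0.117%. There 2 of 10 had an unadjusted p under 0.05 in limma, beside 1297 of all 13731 tested genes. The medians of the 10 genes were 0.19 and 0.18, and those of all tested genes 0.13 and 0.09. Both IOP libraries exceeded both controls for 3 of 10 genes at 3 months (28.6% of tested genes) and for 4 of 10 at 18 months (36.5%), while 1 of 10 was lower in both at 18 months (9.89%).

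Plvap had the smallest p at 3 months. It was at 0.899 and 0.907 FPKM in the 3mo controls and at 2.17 and 2.08 in 3mo IOP, with no overlap and replicates close together. The log2 fold change was 0.90 ± 0.25, with a 95% interval from 0.33 to 1.48, an unadjusted p of 0.00651 and an adjusted p of 0.225. At 18 months Plvap was at 2.70 and 3.09 FPKM in the controls and at 3.36 and 5.87 in 18mo IOP, again without overlap but with treated replicates far apart (0.55 ± 0.25, adjusted p = 0.564).

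Mfsd2a was at 0.271 and 0.147 FPKM in the 3mo controls and at 0.345 and 0.405 in 3mo IOP. At 18 months it was at 1.26 and 0.791 FPKM in the controls and at 1.78 and 2.03 after IOP. The treated libraries lay above the controls at both ages, with log2 fold changes of 0.31 (adjusted p = 0.921) and 0.67 (adjusted p = 0.363). Vwf was at 0.128 and 0.104 FPKM in 3mo IOP and at 2.68 and 3.59 FPKM in 18mo IOP. These values also lay above the controls of the same age, with log2 fold changes of 0.16 and 0.63 (adjusted p = 0.996 and 0.562). Tjp1 exceeded its controls at 18 months only, at 19.8 and 20.7 FPKM against 18.1 and 18.0 (0.16, adjusted p = 0.999).

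Ocln was the gene below its controls at 18 months, with 0.744 and 0.687 FPKM after IOP and 1.61 and 1.23 in the controls. The log2 fold change was -0.65 ± 0.26, with a 95% interval from -1.24 to -0.06 and an adjusted p of 0.443. At 3 months the treated libraries, at 0.654 and 0.272 FPKM, lay on either side of the controls. Cldn5 overlapped at both ages, with 1.51 and 0.917 FPKM in 3mo IOP and 14.0 and 9.90 in 18mo IOP, and its 95% intervals ran from -0.20 to 0.97 and from -0.53 to 0.65. Cdh5, Pecam1, Slc2a1 and Abcb1a likewise overlapped at both ages.

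In 5 other vascular lists, which leave out pericytes and smooth muscle, no gene was called after a single IOP. At 3 months, limma and voom each called 0 of 14 junction, 14 transporter and caveola, 9 norrin and WNT, 12 VEGF, angiopoietin and Notch, and 16 pan-endothelial genes, with 1, 3, 0, 2 and 3 at an unadjusted p under 0.05. The highest values were those of Lsr (0.67), Cavin1 (1.24), Ndp (0.65), Pgf (0.78) and Ly6a (0.71), and the lowest those of Jam2 (-0.06), Tfrc (-0.57), Lrp6 (-0.14), Jag1 (-0.16) and Mmrn2 (0.00). Without 3mo control replicate 2, limma called 1 norrin and WNT gene. At 18 months both tools again called 0 in these lists, with 0, 6, 4, 3 and 0 at an unadjusted p under 0.05. Pgf, which encodes placental growth factor, a ligand of Flt1, stood out in size, at 0.907 and 0.646 FPKM in the controls and 3.84 and 10.4 after IOP. Its treated libraries were well above the controls but far apart, and the log2 fold change of 2.44 had an adjusted p of 0.0933 in limma. The other extremes at 18 months were F11r (0.50) and Marveld2 (-0.26), Cavin1 (0.72) and Tfrc (-0.54), Ndp (0.92) and Fzd4 (-0.26), Flt4 (-0.35), and Ly6c1 (0.52) and Pltp (-0.34).

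The difference between the ages in the response to a single IOP was tested as an interaction. It was called for 0 of 10 barrier genes and for 0.0% of all 13731 genes, of which 218 had an unadjusted p under 0.05, and voom on recovered reads called 0 too. Among the barrier genes the interaction lay between -0.56 (Ocln) and 0.46 (Vwf), all with an adjusted p of 1.0. The 95% intervals were wide, from -1.39 to 0.27 for Ocln and from -0.46 to 1.39 for Vwf, so differences of this size between the ages were not detectable with 2 libraries per group. Beside these values, the 10 leukocyte markers had medians of 1.26 and 0.74 at 3 and 18 months with 0 called at either age in limma or voom, and 7 and 5 at an unadjusted p under 0.05. At 18 months 5 of 5 tested red blood cell markers were lower in both treated libraries than in both controls (9.89% of tested genes), with a median of -2.37. Higher in both were 6 of 8 Muller glia and 4 of 4 tested lens markers (36.5% of tested genes), with medians of 0.61 and 1.11. In these 3 lists limma and voom called 0. Without 3mo control replicate 2, 2 leukocyte markers and 1 platelet marker were called at 3 months. At 3 months the smooth muscle genes Acta2 (3.54) and Tagln (3.21) and the melanocyte gene Mlana (3.59) were called higher, and melanocyte markers summed to 406 and 202 FPKM in 3mo IOP against 57.3 and 17.0 in the 3mo controls. In voom 0 genes of both lists were called, median-of-ratios left 1 smooth muscle gene and 0 melanocyte genes, and 0 melanocyte genes were called with quantile normalization or without 3mo control replicate 2. Their part in the barrier gene values was not tested.

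After 4 elevations 1 of the 9 tested barrier genes rose, Vwf, beside 5.45% of all 13718 tested genes. Both 4xIOP libraries exceeded both controls for 6 of the 10 genes, namely Tjp1, Cdh5, Pecam1, Mfsd2a, Plvap and Vwf. Among the 9 tested genes it was 5, beside 27.7% of all tested genes. The median log2 fold change over the 9 was 0.28, against 0.10 for all tested genes. Cdh5 averaged under the 0.5 FPKM required and was not tested. Mfsd2a was below 0.5 FPKM in both controls and was tested only because of its level after 4xIOP.

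Vwf was at 0.407 and 0.775 FPKM in the 4xIOP controls and at 4.51 and 1.50 after 4xIOP, on 142 and 288 against 2223 and 557 reads. The treated replicates differed by more than the lower of them exceeded the controls. The log2 fold change was 1.56 ± 0.35, with an adjusted p of 0.013 in limma. Without 4xIOP replicate 1 it was 0.90 with an adjusted p of 0.124, and the call was also lost with median-of-ratios size factors (log2 fold change 1.48, adjusted p = 0.155), quantile normalization (1.32, adjusted p = 0.179), voom on recovered reads (2.10, adjusted p = 0.145) and no filter on low values (1.56, adjusted p = 0.179). Platelets also hold Vwf, and of their 7 markers only Pf4, which microglia and macrophages can make as well, was called, at 0.086 and 0.243 FPKM in the controls and 7.12 and 2.84 after 4xIOP (2.93 ± 0.32, adjusted p = 4.91e-05). Gp1bb was the only other platelet marker tested (-0.01), and in each library 2 or 3 of the 7 markers were at 0. The part of platelets in the Vwf value was not tested.

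Plvap was at 0.789 and 0.647 FPKM in the controls and at 1.81 and 1.77 after 4xIOP. The groups were well apart and the replicates close, and the log2 fold change of 0.91 ± 0.22 had an adjusted p of 0.019 but stayed below 1. With a pseudocount of 0.1 it was 1.21 and was called. Pecam1 was at 1.87 and 1.68 FPKM against 3.16 and 2.50 (0.54 ± 0.20, adjusted p = 0.168), without overlap. Cldn5 was at 3.38 and 5.62 FPKM in the controls and at 10.3 and 5.59 after 4xIOP, so the lower treated library fell between the controls and its log2 fold change of 0.73 ± 0.29 (adjusted p = 0.198) rested on 4xIOP replicate 1. Cdh5 showed the same unevenness, at 0.374 and 0.345 against 0.834 and 0.399 FPKM.

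Mfsd2a was at 0.401 and 0.487 FPKM in the controls and at 0.542 and 0.754 after 4xIOP, with a log2 fold change of 0.28 that turned to -0.14 under quantile normalization. Tjp1 was at 12.5 and 12.6 FPKM against 13.7 and 14.0, a narrow step with a log2 fold change of 0.14. Slc2a1, Abcb1a and Ocln overlapped, with log2 fold changes of -0.16, -0.08 and -0.07. Their 95% intervals ran from -0.75 to 0.42, from -0.58 to 0.42 and from -0.56 to 0.43.

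In the other vascular lists after 4xIOP, calls can be read beside the 5.45% of all tested genes that rose. Pgf, Slc38a5 and Fli1 were below 0.5 FPKM in both controls and were tested only because of their level after 4xIOP, as was Pf4. Of 13 tested pan-endothelial genes 3 rose: Ly6a (2.16 ± 0.22, adjusted p = 2.35e-05), Cd34 and Fli1, of which Fli1 and Cd34 are also made by blood cells. The count was 1 without 4xIOP replicate 1 and 2 with median-of-ratios or quantile scaling. The growth factor Pgf (2.72 ± 0.27) rose from 0.127 and 0.312 to 3.10 and 5.67 FPKM and the VEGF receptor Kdr rose by 1.17 ± 0.27 on the log2 scale, the 2 calls among 10 tested genes of that list, where Jag1 was lowest (-0.89). Median-of-ratios and voom also called 1 gene of the list lower, and 3 were higher in voom, with the length trend removed and without 4xIOP replicate 1. The amino acid transporter Slc38a5 rose from 0.109 and 0.499 to 2.17 and 2.09 FPKM (1.75 ± 0.27, adjusted p = 0.000763). The thyroid hormone transporter Slco1c1, a gene of barrier endothelium and of glia, fell from 2.95 and 3.76 to 1.27 and 0.586 FPKM (-1.47 ± 0.25, adjusted p = 0.0019). These were the calls among 14 tested transporter and caveola genes, against 2 higher and 2 lower in voom and 1 higher and 2 lower without 4xIOP replicate 1. Of 13 tested junction genes F11r alone rose (1.00 ± 0.22), a call that was lost in limma fits with other scalings. Of 7 tested norrin and WNT genes 0 were called in limma or voom, from Ndp (0.93) to Fzd4 (-0.41), and 1 of the 7 had an unadjusted p under 0.05.

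Beside these values, all 10 leukocyte and microglia markers rose after 4xIOP (median 2.79, from Cx3cr1 at 2.13 to Tyrobp at 3.78), and their sum went from 9.40 and 9.24 to 122 and 119 FPKM. All 5 tested lens markers rose as well (Crybb1 at 1.48 to Cryba1 at 4.45), and 4 of 5 tested markers of the pigment epithelium fell (Ttr at -2.67 lowest), or 2 of 5 without 4xIOP replicate 1. Of the Muller glia markers Vim rose (1.74), while 1 marker was called lower with median-of-ratios, quantile normalization and voom and 2 were higher in voom and with the length trend removed, and the 1 tested melanocyte marker, Dct, fell (-1.18), a call lost without the same library (-0.85). In limma as described 0 of 5 pericyte and smooth muscle markers, 0 of 8 rod markers and 0 of 4 red blood cell markers were called, with 1, 3 and 0 at an unadjusted p under 0.05, and voom called 3 rod markers lower and 0 of the others. Of the 5 tested lens markers, median-of-ratios and voom called 4 higher and quantile normalization 3. With median-of-ratios, quantile normalization or the length trend removed, limma called 1 rod marker lower. Their part in the vascular values was not tested.

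Within each group the order of levels was led by Slc2a1 and Tjp1, which held 74.4% and 18.9% of the summed FPKM of the 10 genes in the 3mo controls and 64.8% and 13.5% in the 18mo controls. The genes below them changed places with age, in libraries that also differed in the ratio of short to long transcripts, whose part in the order was not tested. In the 3mo controls Pecam1, Plvap and Cldn5 followed at 0.947, 0.903 and 0.805 FPKM, and these 3 did not differ beyond the spread of their replicates, while Vwf was last at 0.05. In the 18mo controls Cldn5 followed alone at 11.3 ± 0.38 (SD, n = 2), then Pecam1 at 5.49 ± 0.63, and Mfsd2a was last at 1.03 ± 0.33. Abcb1a at 3.05 ± 0.11 and Plvap at 2.90 ± 0.27 overlapped each other and lay above Cdh5 at 2.04 ± 0.43. From Cdh5 over Vwf and Ocln to Mfsd2a, each gene overlapped the next.

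Over the 8 single-IOP libraries, the profile of each gene was compared with the median profile of the other 9, as a description. Pearson's r was highest for Cldn5 (0.979) and Cdh5 (0.976), between 0.908 and 0.970 for Slc2a1, Abcb1a, Vwf, Pecam1, Tjp1 and Mfsd2a, and lowest for Plvap (0.827) and Ocln (0.684). Outside the 10 genes, the profiles most like their median were those of Prkd2 (0.9985), Eng (0.9966), Il17ra (0.996), Hars2 (0.9942) and Adgrl4 (0.9938). These 8 points share their 4 groups, the age difference and the contrast in transcript length.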

How the data were processed

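RNA of 12 retinas was sequenced. The authors mapped reads to mm10 with STAR 2.7.8a and counted uniquely mapped tags in exons by strand with HOMER, 1 isoform per gene. They deposited FPKM values with the transcript length used, in a table for the single-IOP series (8 libraries) and another for the repeated-IOP series (4 libraries), normalized separately and therefore tested separately. The authors tested counts with DESeq2. As the deposited unit was FPKM, limma 3.58.1 (R 4.3.3) with an intensity trend was run on log2(FPKM + 0.5) for genes averaging 0.5 FPKM or more, in a fit of all 4 groups of the first table or both of the second. P-values were adjusted over all tested genes (Benjamini-Hochberg). Calls required an adjusted p not above 0.05 together with a log2 fold change of 1 or more in either direction. Whole reads were recovered from FPKM, length and library totals for 100% of checked values (within 0.25 reads). Alternatives changed the pseudocount, filter, scaling, variance model, samples or count test (voom), removed the trend with transcript length by a spline, or left out a library. The scripts were tested on simulated data. Every barrier gene was named, and of other lists the highest, the lowest and the called genes, though in long lists some called genes appear without values and some list genes are not reported here. Members and lists were chosen with earlier results of these data known. Promoter sequences are from RefSeq (GRCm38.p6). No column belonged to other samples (0).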

Additional observations from a re-analysis of the deposited data

How the results depend on the processing

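The age difference of the barrier genes kept its direction in all 135 values computed under alternatives, 11 of which lost a call and 3 gained 1. Over all comparisons 827 of 895 values kept direction and call, 16 lost a call, 7 gained 1 and 45 changed sign, the last all among values without a call. Causes were not tested. With a mean of at least 2 FPKM required, fewer barrier genes were tested. Of these, 4 of 5 were called between the control ages, 2 of 5 between the treated ages and 0 of 4 after 4xIOP. Among all genes this filter gave 2753 of 10964, 2496 of 10964 and 475 of 10582 called in either direction, in the same order. Cldn5, Pecam1 and Plvap were below 2 FPKM in both 3mo controls and passed mainly through the 18mo libraries. The counts between ages are therefore descriptions. After 4xIOP, 2 barrier genes were called with a pseudocount of 0.1 and by adjusted p alone. The count was 0 without a filter, with median-of-ratios size factors, with quantile normalization and in voom. Leaving out 1 library gave 0 (without 4xIOP replicate 1) to 1. Over all genes, 3185 were called between the control ages, and 1176 (without 18mo control replicate 2) to 4717 (without 3mo control replicate 1) with 1 library left out.

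Some signs changed with scaling or the pseudocount. For a single IOP at 3 months, median-of-ratios gave Tjp1 -0.13, Pecam1 -0.11 and Abcb1a -0.078, quantile normalization Tjp1 -0.13, Cdh5 -0.13, Pecam1 -0.23, Vwf -0.15 and Abcb1a -0.38, and voom Tjp1 -0.13, Pecam1 -0.19 and Abcb1a -0.19. At 18 months, Cldn5 was -0.055 with median-of-ratios, -0.062 with quantile normalization, -0.059 in voom and -0.012 without the length trend, and Slc2a1 was -0.041 with median-of-ratios and voom and -0.10 with quantile normalization. After 4xIOP, Mfsd2a was -0.14 with quantile normalization. The interaction of Cdh5 was -0.28 with a pseudocount of 0.1, -0.050 with median-of-ratios, -0.0063 without the length trend and -0.69 in voom, and that of Vwf was -0.36 in voom.

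With 1 library left out, these values ran across 0. For a single IOP at 3 months they were -0.38 to 0.20 for Ocln, -0.26 to 0.38 for Tjp1, -0.10 to 0.13 for Pecam1 and -0.056 to 0.060 for Abcb1a. At 18 months they were -0.18 to 0.30 for Cldn5, -0.0071 to 0.45 for Cdh5, -0.21 to 0.0098 for Pecam1 and -0.086 to 0.50 for Abcb1a. After 4xIOP Abcb1a ran from -0.29 to 0.13. The interaction ran from -0.22 to 0.42 for Tjp1, -0.22 to 0.24 for Cdh5, -0.22 to 0.0004 for Pecam1, -0.38 to 0.065 for Slc2a1, -0.72 to 0.0062 for Plvap and -0.087 to 0.49 for Abcb1a.

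Nothing in the labels ties libraries of the same number, and their deviations from the group means correlated at -0.275, -0.53 and -0.29, which with 2 libraries per group does not show how the eyes were numbered. With the replicate block, 0, 0 and 1 barrier genes were called after a single IOP at 3 and 18 months and after 4xIOP (20, 0 and 864 of all genes). With the pairing crossed, chosen after seeing the data, the counts were 0, 0 and 1 (312, 306 and 894). The 2 libraries per group limit all comparisons, and the genes below 0.5 FPKM rest on few reads.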

Other observations

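The controls of the repeated-IOP series can be set beside those of the single-IOP series as levels only, because the tables were normalized separately and no test was made. Cldn5 was at 3.38 and 5.62 FPKM in the 4xIOP controls, against 0.988 and 0.622 in the 3mo controls and 11.58 and 11.04 in the 18mo controls. Abcb1a was likewise between them, at 1.24 and 1.52 against 0.281 and 0.346 and against 2.97 and 3.13 FPKM. Vwf, at 0.407 and 0.775 FPKM, and Pecam1, at 1.87 and 1.68 but counted on a different transcript in each table, also lay between both ages, whereas Plvap, at 0.789 and 0.647, lay below both and Slc2a1, at 34.4 and 43.2, overlapped the 3mo controls. The ratio of short to long transcripts was 2.12 and 2.0 in the 4xIOP controls, also between the values of the 3mo and the 18mo controls.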
